A study of Mus musculus with 6 samples.

Results

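The regions of histone H3 lysine 4 trimethylation (H3K4me3) on chromosomes 1 to 19 were compared between 2 mouse embryonic stem cell lines, a WT rescue and a mutant rescue. They were all rows on these chromosomes of the 2 deposited H3K4me3 peak lists, 69221 regions for the WT rescue and 71757 for the mutant rescue, together 140978 of the 183983 rows in the 4 antibody lists of the series. Both lines have GFP inserted at Rx, a gene of eye-field specification, lack both endogenous Wdr5 and p53, and were kept in 2i+LIF, a medium that holds the cells in naive pluripotency. The WT rescue expresses wild-type WDR5 (WDR5WT) and the mutant rescue WDR5 with the substitutions S91K and Y191F (WDR5S91KY191F), so neither line is without WDR5, and p53 is absent from both. The labels give no clone number and no promoter for the rescue construct. Chromatin was fixed for 10 minutes in 1% formaldehyde and immunoprecipitated with an H3K4me3 antibody. There was 1 H3K4me3 library per line, so differences have no replicate check, no test was made, and intervals on shares and medians cover counting error only.

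H3K4me3 is placed by the KMT2/SETD1 family of methyltransferases, whose complexes share the WD-repeat protein WDR5, ASH2L, RBBP5 and DPY30. The mark sits on the nucleosomes around gene starts, most of all at promoters rich in CG dinucleotides, and commonly leaves a dip over the start itself where nucleosomes are few. Broad H3K4me3 is known at genes of cell identity and at some highly transcribed genes, and in embryonic stem cells the mark is also found at silent developmental genes together with H3K27me3. A gene can carry the mark without being transcribed.

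The following 5 promoters show where the edges of the regions lay in the 2 lists. Each is the RefSeq promoter on GRCm38.p6 (the mm10 coordinates), 250 bases before to 50 bases after the annotated start, 5′ to 3′ on the gene's strand. The first 3 belong to genes of ribosomal proteins, and capitals mark the bases inside a WT rescue region, while a mutant rescue region covered all 300 bases. In Rps2, at chr17:24719813-24720112 (plus strand, 34 CG dinucleotides), 91 bases lay in a WT rescue region. In Rpl28, at chr7:4792715-4793014 (plus strand, 29 CG), 84 bases did, and in Rps15a, at chr7:118116098-118116397 (minus strand, 17 CG), 76 bases did.
Rps2: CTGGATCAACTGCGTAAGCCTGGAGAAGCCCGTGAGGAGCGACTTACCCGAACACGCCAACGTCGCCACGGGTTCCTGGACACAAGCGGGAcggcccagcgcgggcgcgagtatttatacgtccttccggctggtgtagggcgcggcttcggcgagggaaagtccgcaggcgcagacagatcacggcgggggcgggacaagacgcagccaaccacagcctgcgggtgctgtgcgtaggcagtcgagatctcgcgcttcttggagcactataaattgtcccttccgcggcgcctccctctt
Rpl28: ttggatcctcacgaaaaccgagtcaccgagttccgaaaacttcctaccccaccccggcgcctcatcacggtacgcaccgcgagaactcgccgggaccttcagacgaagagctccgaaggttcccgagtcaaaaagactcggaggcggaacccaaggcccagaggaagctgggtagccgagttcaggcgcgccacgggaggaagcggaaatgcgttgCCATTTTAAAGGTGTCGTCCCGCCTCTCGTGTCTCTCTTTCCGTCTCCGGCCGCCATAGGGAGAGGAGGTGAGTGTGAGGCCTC
Rps15a: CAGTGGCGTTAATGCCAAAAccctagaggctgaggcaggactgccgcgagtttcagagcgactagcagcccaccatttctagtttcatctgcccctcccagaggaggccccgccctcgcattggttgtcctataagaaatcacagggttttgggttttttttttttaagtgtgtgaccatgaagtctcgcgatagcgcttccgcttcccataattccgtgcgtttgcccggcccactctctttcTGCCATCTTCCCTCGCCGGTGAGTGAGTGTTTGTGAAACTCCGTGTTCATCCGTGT
The lower-case stretch of Rps2 was therefore unmarked in the WT rescue list between its upstream region, ending at 24719903, and its downstream region, beginning at 24720139. In the remaining pair capitals mark the bases inside a mutant rescue region, while a WT rescue region covered all 300 bases. Hoxa2 encodes a hindbrain patterning factor, and at chr6:52164782-52165081 (minus strand, 9 CG) 137 bases lay in a mutant rescue region. Mgat4c, a glycosyltransferase gene, has 4 annotated starts, and at the one shown, chr10:102374187-102374486 (plus strand, 6 CG), 167 bases did.
Hoxa2: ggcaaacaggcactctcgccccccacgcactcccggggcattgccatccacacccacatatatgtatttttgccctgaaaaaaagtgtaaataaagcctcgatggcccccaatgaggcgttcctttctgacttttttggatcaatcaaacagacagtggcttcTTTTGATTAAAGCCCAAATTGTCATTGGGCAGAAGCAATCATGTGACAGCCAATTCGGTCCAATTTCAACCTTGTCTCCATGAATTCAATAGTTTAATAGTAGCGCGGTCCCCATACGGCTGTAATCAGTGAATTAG
Mgat4c: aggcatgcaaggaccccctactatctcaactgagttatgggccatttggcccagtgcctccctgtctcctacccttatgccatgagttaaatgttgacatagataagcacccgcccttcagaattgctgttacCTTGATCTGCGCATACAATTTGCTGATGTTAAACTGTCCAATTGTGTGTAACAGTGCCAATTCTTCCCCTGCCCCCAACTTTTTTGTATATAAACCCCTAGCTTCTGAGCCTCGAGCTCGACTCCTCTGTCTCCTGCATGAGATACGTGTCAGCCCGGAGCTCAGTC
The mutant rescue region thus ran unbroken across the promoter at the 3 ribosomal protein genes. At Hoxa2 and Mgat4c it reached less far upstream than the WT rescue region. The larger difference at Mgat4c lay downstream of the bases shown. Mutant rescue minus WT rescue, its upstream edge moved by 137 bp and its downstream edge by -1213 bp.

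Genes for the proteins of the cytosolic ribosome had H3K4me3 that more often covered the start and the stretch just before it, and that ended closer to the start downstream, in the mutant rescue. At 2000 bp downstream of the start, 49 of 66 of their starts (74.2%) lay inside a WT rescue region and 5 (7.58%) inside a mutant rescue region. Over all 13563 protein-coding starts with H3K4me3 within 1 kb in both lists the shares there were 5.76% and 3.87%. At the start itself the order was the opposite, with 48 of the 66 ribosomal protein starts (72.7%) covered in the WT rescue against 64 (97.0%) in the mutant rescue, beside 93.1% and 92.5% of all starts. The distances were chosen after the values had been seen.

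The list held 77 genes, of which 75 had H3K4me3 within 2.5 kb of a start or gene end in both lists, Rpl32l had 151 bp in the WT rescue alone and Rpl3l had none. The promoter table gave 69 starts of 57 of these genes, and 66 starts of 55 genes had H3K4me3 within 1 kb in both lists. At 150 bp upstream 31 of the 66 lay inside a WT rescue region and 55 inside a mutant rescue region. All 31 were among the 55, and the shares over all 13563 starts were 85.0% and 86.2%. Further out, at 500 bp upstream, both lists covered 40.9% of the 66 starts. At 250 bp downstream both counts were 65 of the 66. In the first 500 bp downstream the mutant rescue covered more base pairs at 17 of 55 genes and fewer at 0. Among all 11302 genes with such starts it covered more at 5.83% and fewer at 10.7%. At 1500 bp downstream 61 starts were covered in the WT rescue against 39 in the mutant rescue, and no start was covered in the mutant rescue alone at 1500 or 2000 bp. Starts covered in the mutant rescue alone were also rare among all 13563, with 94 at 1500 bp and 45 at 2000 bp. Their absence among the 66 therefore does not set the ribosomal protein genes apart. Of the 49 starts that a WT rescue region covered at 2000 bp, 5 (10.2%) were also covered in the mutant rescue. For the 732 other protein-coding starts so covered in the WT rescue the number was 475 (64.9%). Both groups were taken by their coverage in the WT rescue, so some loss in the mutant rescue is built in. They were not matched for how far their regions reached. Taken the other way, all 5 ribosomal protein starts covered in the mutant rescue were covered in the WT rescue, beside 475 of 520 other starts (91.3%).

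**Figure D1:**
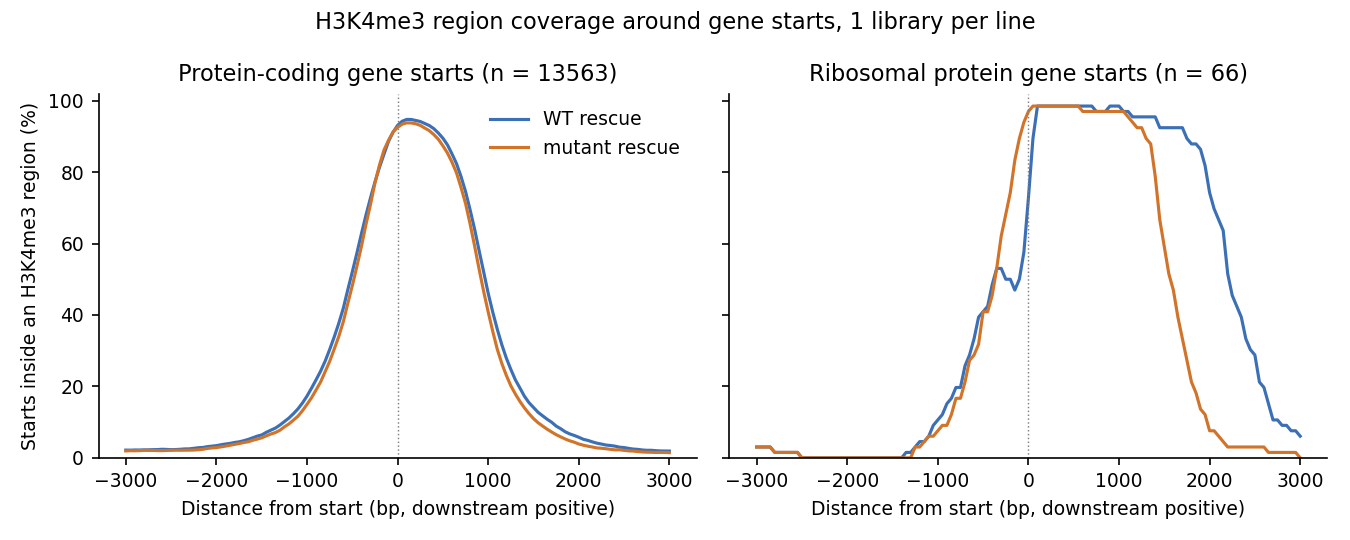
Share of protein-coding gene starts that lie inside an H3K4me3 region at each distance from the start (x axis, bp, downstream positive; y axis, percent of starts) in the WT rescue (blue) and the mutant rescue (orange), for all 13563 starts with the mark in both lists (left) and for 66 starts of ribosomal protein genes (right). On the left the lines lie within 1 percentage point of each other at the start and at 46.1% and 40.8% at 1000 bp downstream. On the right the WT rescue line dips before the start and stays high to about 2000 bp, where it is at 74.2% and the mutant rescue line at 7.58%.

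Between 1500 and 2500 bp downstream the median ribosomal protein gene had 705.5 bp of H3K4me3 in the WT rescue and 93 bp in the mutant rescue. The lists differed there at 51 of 55 genes, and at 50 of the 51 (98.0%) the mutant rescue covered fewer base pairs, beside 78.2% of the 1931 protein-coding genes at which they differed. The median difference where they differed was -533 bp for the ribosomal protein genes and -63 bp for all genes. In the 500 bp upstream of the start the medians were 276 and 383 bp, and the lists differed at 39 genes. The mutant rescue had more at 35 of the 39 (89.7%), beside 44.2% of the 6562 genes at which they differed. Rps15a, a protein of the small subunit, had all 1000 bp of the downstream stretch covered in the WT rescue against 0 in the mutant rescue, and 276 and 500 bp of the upstream stretch. Rpl35, of the large subunit, had 1000 and 0 bp downstream and 287 and 500 bp upstream. Rps9 differed from these, with 1000 bp covered downstream in both lists, and Rpl39l, a paralogue of Rpl39, had 0 bp downstream in both.

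Of these genes 13 had a single start inside a single pair of regions, which allows the reach on each side to be measured. Their regions reached a median of 2038 bp downstream in the WT rescue and 1544 bp in the mutant rescue, with a median difference of -507 bp, and 12 of 13 were shorter in the mutant rescue. In all 7159 such pairs 67.4% were shorter downstream, with medians of 948 and 912 bp. Upstream, 4 of the 13 were shorter in the mutant rescue, against 59.1% of all pairs, and the medians were 246 and 286 bp. Rps7 had the greatest difference, from 2789 to 1544 bp downstream, with 644 and 655 bp upstream. Rpl11 reached 2401 and 1460 bp downstream and 24 and 172 bp upstream. Rpl10l, an intronless paralogue of Rpl10, was the exception, at 1755 and 1798 bp downstream.

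Within 2.5 kb of the start the 75 ribosomal protein genes with the mark in both lists had a median ratio of covered base pairs, mutant rescue over WT rescue, of 0.808. It was below 1 in 73 of them, beside 74.1% of all 14796 protein-coding genes with the mark in both lists, whose median ratio was 0.949. With a window of 1 kb, which takes in the upstream stretch and leaves out the distant downstream part, the median ratio of the ribosomal protein genes was 1.02. A gene was called where the ratio was at least 1.5 in either direction, and 6 of the 75 were called with more in the WT rescue (8%; 3.66% of all genes) and 0 with more in the mutant rescue (1.37% of all genes). Among the lowest ratios were those of Rpl35 (2819 and 1622 bp) and Rpl6 (2497 and 1536 bp), and the highest were those of Rps9 (2478 and 2531 bp), Rpl39l (1637 and 1666 bp) and Rps29 (1843 and 1836 bp). On chromosome 5 the WT rescue region of Rpl6 ran from 121204505 to 121207004 and the mutant rescue region from 121204312 to 121205847. Its authors' −log10 q was 299 and 489, higher in the mutant rescue, whereas over all promoter regions the medians were 191 and 139. Ribosomal protein genes have many processed copies elsewhere in the genome, and the treatment of reads that map to several places is not given in the sources used here.

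Across the genome the mutant rescue list held more regions and slightly more sequence, with less at promoters and more outside genes. The WT rescue regions covered 60.5 Mb and the mutant rescue regions 61.7 Mb, a ratio of 1.02, and 48.4 Mb were in both lists, which is 80.0% of the WT rescue and 78.4% of the mutant rescue base pairs. Within 1 kb of an annotated gene start the mutant rescue covered 21.5 Mb against 22.3 Mb, a ratio of 0.964. Elsewhere inside genes the amounts were 22.7 and 22.8 Mb (0.996), and outside genes 17.5 and 15.4 Mb (1.14), a difference of 2.16 Mb. Where the promoter table gave no start for a gene, both of its annotated ends stood in for it.

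By number, 28.3% of WT rescue regions (95% interval 28.0 to 28.6) and 26.9% of mutant rescue regions (26.6 to 27.3) touched a promoter window, and 31.3% (31.0 to 31.7) and 33.8% (33.4 to 34.1) lay outside genes, by exact Clopper-Pearson intervals. All 19 chromosomes had a promoter ratio of covered base pairs below 1, from 0.951 on chromosome 15 to 0.989 on chromosome 16. Outside genes all 19 had a ratio above 1, from 1.07 on chromosome 5 to 1.25 on chromosome 16. Chromosome 16 stood apart in its total, with a ratio of 1.10 against 0.990 to 1.04 on the other 18. Along it the ratio was 1.19 between 10 and 20 Mb and 1.15 between 20 and 30 Mb, but 0.923 between 50 and 60 Mb and 0.886 between 70 and 80 Mb. The copy number of chromosome 16 in either line was not tested. Naive pluripotency genes on it went both ways, with 2410 and 2924 bp at Dppa2 and 2003 and 1598 bp at its neighbour Dppa4.

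**Figure D2:**
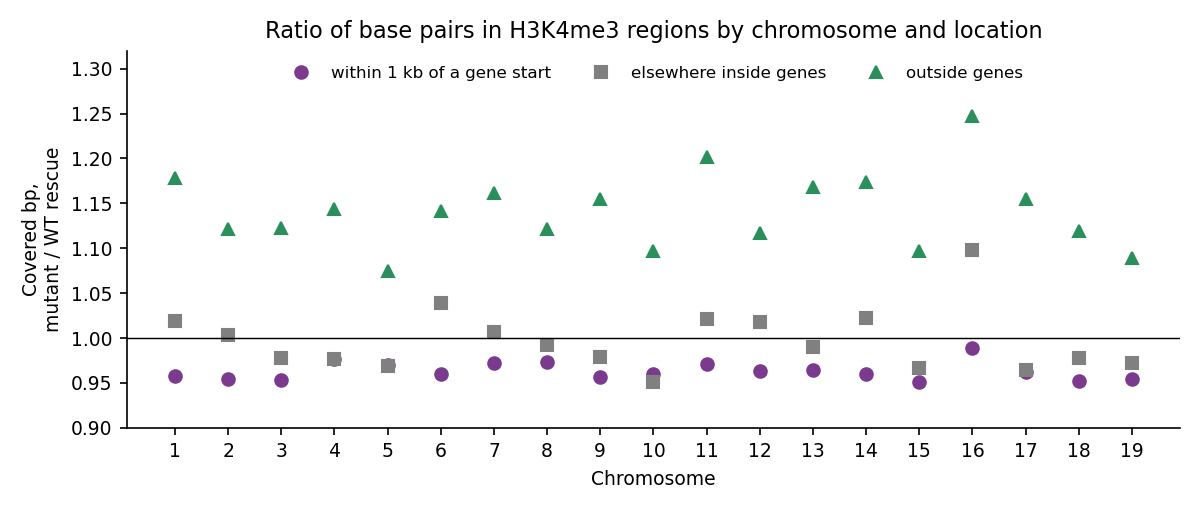
Ratio of base pairs in H3K4me3 regions, mutant rescue over WT rescue (y axis), for each of chromosomes 1 to 19 (x axis), within 1 kb of a gene start (circles), elsewhere inside genes (squares) and outside genes (triangles). All circles lie below 1, between 0.951 and 0.989, and all triangles above 1, with the highest, 1.25, on chromosome 16.

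The median width was 747 bp in the WT rescue (95% interval 741 to 754) and 731 bp in the mutant rescue (724 to 738). This order turned with the treatment of weak and neighbouring regions: without regions below a −log10 q of 2 the medians were 802 and 826 bp, with lists of equal length 747 and 768 bp, and with gaps of at most 500 bp joined 869 and 925 bp. Width differed by place. At promoters the medians were 1318 and 1296 bp, and regions over 2000 bp numbered 2487 in the WT rescue against 1832 in the mutant rescue. Outside genes the corresponding numbers were 407 and 552, and inside genes 644 and 790. Regions of at most 300 bp were also more numerous in the mutant rescue, 15292 against 13464. The smallest region was 151 bp in both lists and the smallest gap between neighbours 152 bp.

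**Figure D3:**
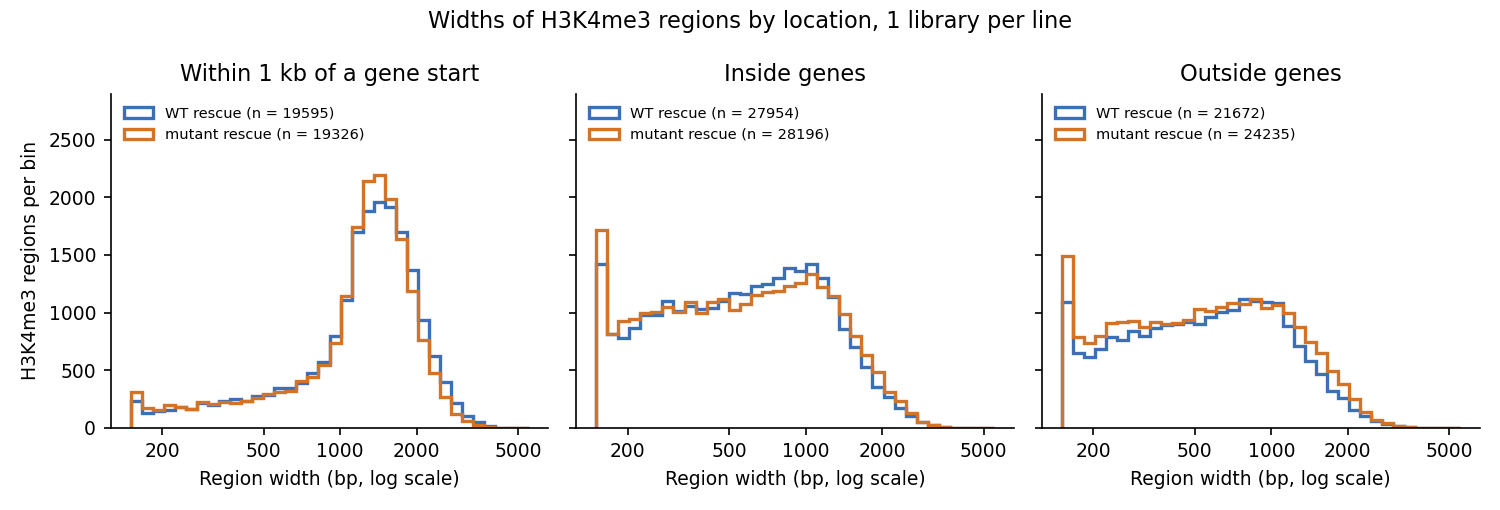
Number of H3K4me3 regions (y axis) by width in bp (x axis, log scale) in the WT rescue (blue) and the mutant rescue (orange), for regions within 1 kb of a gene start, elsewhere inside genes and outside genes. At promoters the mutant rescue has fewer regions over 2000 bp (1832 against 2487), and outside genes it has more (552 against 407).

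The widest regions were largely shared. In the WT rescue they lay at Rn18s-rs5, a pseudogene of 18S ribosomal RNA on chromosome 17 (5388 bp), at the long non-coding RNA gene Malat1 on chromosome 19 (4512 bp) and at Anp32a, a histone chaperone gene on chromosome 9 (4052 bp). The mutant rescue had regions of 4249 and 1283 bp at the first, 3883 bp at the second and 3963 bp at the third. Its own widest region, 4620 bp on chromosome 13 from 44729657 to 44734276, lay at Jarid2, a subunit of Polycomb repressive complex 2, where the WT rescue list had 3 regions of 881, 2790 and 676 bp. Rn18s-rs5 carries repeated ribosomal sequence, and how reads from repeats were placed is not given in the sources used here.

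In the WT rescue 13394 regions (19.3%) had no overlap with a mutant rescue region, and in the mutant rescue 16069 (22.4%) had none with a WT rescue region. These single-list regions were narrow, with medians of 286 and 292 bp, and weak, with a median −log10 q of 3.31 and 2.65. At promoters they made up 7.20% and 6.25% of regions, and outside genes 21.2% and 30.2%. Single-list regions wider than 1 kb numbered 172 in the WT rescue against 784 in the mutant rescue, and of these 47 and 380 lay outside genes and 25 and 73 at promoters. The widest outside genes was 2356 bp in the mutant rescue, on chromosome 15 from 60554485 to 60556840, whose nearest gene was the pseudogene Gm6392 at 84.8 kb. In the WT rescue it was 1927 bp, on chromosome 15 from 77462949 to 77464875, at 12.2 kb from Apol10a. The median −log10 q of a list was 12.7 in the WT rescue against 8.41 in the mutant rescue. That value depends on read depth, which is unknown here, and its part in the numbers of regions was not tested.

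Most regions had a single counterpart, and at promoters the mutant rescue region was usually the narrower. There were 49850 one-to-one pairs, 72.0% of WT rescue and 69.5% of mutant rescue regions, and 58% of them were narrower and 41.6% wider in the mutant rescue. The 17001 pairs at promoters had median widths of 1379 and 1336 bp and a median difference of -63 bp (interval -65 to -61; quartiles -161 and 19). Of these 69.6% were narrower (68.9 to 70.2), with each edge moved inward by a median of 26 bp. The 17766 pairs inside genes had a median difference of -19 bp, and the 14785 outside genes 0 bp (-3 to 3), with 49.8% narrower.

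In base pairs the widest promoter pairs had the largest median difference. Promoter pairs with a mean width over 2000 and up to 4000 bp had a median difference of -141 bp and 84.0% were narrower, beside -55 bp and 69.0% for those over 1000 and up to 2000 bp. Narrow promoter pairs differed more relative to their width: the median ratio of widths was 0.817 (-84.5 bp) for those over 300 and up to 500 bp, against 0.940 for the widest class. Outside genes the pairs over 1000 and up to 2000 bp went the other way, with a median of 43 bp and 40.6% narrower, and inside genes the median of that class was 14 bp. Summits, the points of highest signal named by the authors' peak caller, lay a median of 57 bp apart over all pairs and 37 bp at promoters. In base pairs, the one-to-one pairs held 53.6% of the sequence found in the WT rescue alone (6.47 Mb) and 42.9% of that found in the mutant rescue alone (5.73 Mb). Single-list regions held 38.1% (4.60 Mb) and 47.1% (6.29 Mb).

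**Figure D4:**
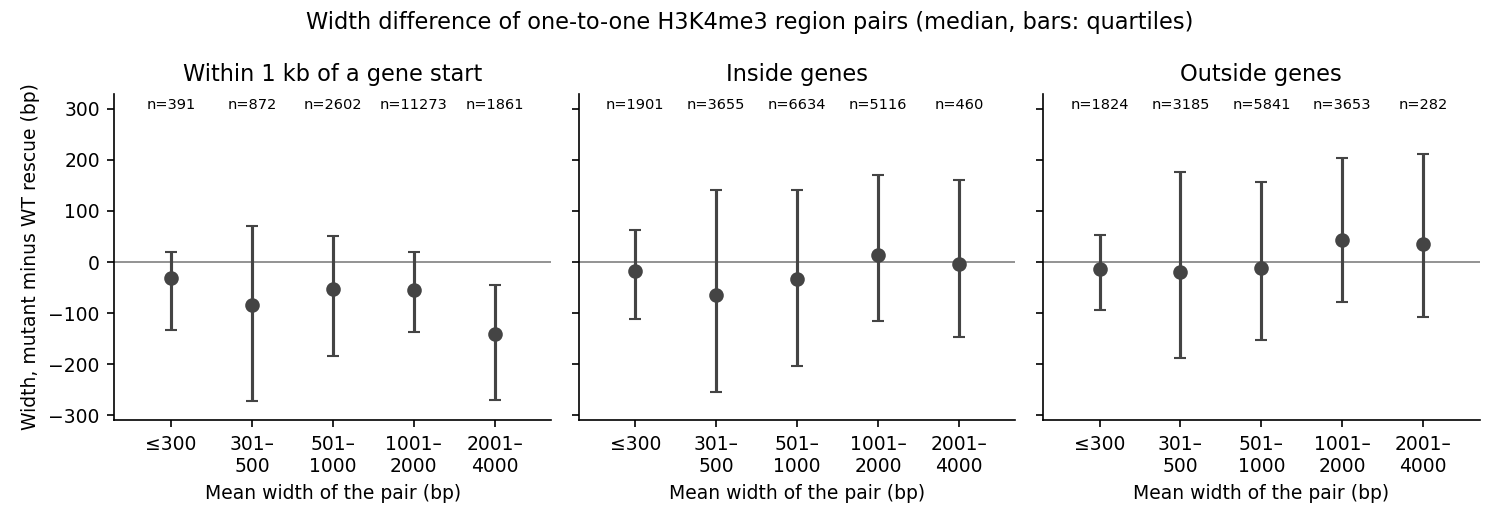
Median difference in width, mutant rescue minus WT rescue (y axis, bp; bars are quartiles over pairs), of one-to-one pairs by the mean width of the pair (x axis, bp) within 1 kb of a gene start, elsewhere inside genes and outside genes. The promoter medians are all below 0 and reach -141 bp in the widest class, while outside genes the class over 1000 and up to 2000 bp lies at 43 bp.

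Over a start, the mutant rescue regions were shorter on both sides. In the 7159 pairs with a single start the upstream reach had medians of 441 and 415 bp (median difference -15 bp) and the downstream reach 948 and 912 bp (-36 bp). Without the 13 ribosomal protein pairs the differences were -15 and -35 bp. Over all 13563 starts the share inside a region was 17.3% and 15.0% at 1000 bp upstream, 46.1% and 40.8% at 1000 bp downstream, and within 1 percentage point of each other at the start.

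Named promoter pairs were those with the greatest ratio of widths among 12006 pairs at protein-coding genes that were at least 1 kb wide in a list and reached a −log10 q of 2 in both. Of these 73.8% were narrower in the mutant rescue, and 52 (0.433%) were at least 2 times narrower and 16 (0.133%) at least 2 times wider. Over all 49850 pairs, with no filter on width or q, 6.1% were at least 2 times narrower and 5.91% at least 2 times wider. Pax6, a master regulator of eye and neural development, led the narrower ones at its downstream start on chromosome 2, with 1480 bp in the WT rescue and 171 bp in the mutant rescue. The region at its upstream start differed less, 1489 and 1223 bp. Next came Lrrc4b, a synaptic adhesion gene (1816 and 297 bp), Mab21l1, an eye development gene (1334 and 258 bp), Otos, expressed in the inner ear (1062 and 216 bp), and Elmo1, a regulator of Rac signalling (1390 and 293 bp). Eln, which encodes elastin (1191 and 282 bp), Dcc, the netrin receptor (1117 and 271 bp), 4930404N11Rik (1358 and 347 bp), Mgat4c (1840 and 490 bp) and Chn1, a Rac GTPase-activating protein (1388 and 371 bp), completed the 10. The pairs of Elmo1 and Chn1 also lay at 1 of several annotated starts, and the regions at the other start differed less, with 1647 and 1622 bp at Elmo1 and 1622 and 1533 bp at Chn1. Mab21l1, Eln, Dcc and 4930404N11Rik have no start in the promoter table. Their pairs lay at an annotated gene end, which may not be the start.

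The wider ones had a narrow WT rescue region, which the choice by ratio of widths fixes in advance. It was also weak, as was the narrow mutant rescue region of the narrower set. Gm13194 had 156 and 1487 bp, Rnaseh1, which encodes a ribonuclease of RNA-DNA hybrids, 311 and 1649 bp, and Cd37, a leukocyte tetraspanin gene, 276 and 1117 bp. Mfap5, a microfibril gene, had 406 and 1598 bp and Hsh2d, a haematopoietic adaptor gene, 335 and 1159 bp. Krtdap, Clec2f, Radil, Asb16 and Thap4 had between 299 and 660 bp in the WT rescue and between 1000 and 1973 bp in the mutant rescue. At the other annotated start of Thap4 the regions were 1916 and 1939 bp and at that of Radil 1235 and 1225 bp. At the other annotated end of Rnaseh1 they were 1382 and 1265 bp and at that of Mfap5 1216 and 1152 bp. Rnaseh1, Mfap5 and Clec2f have no start in the promoter table, so the gene end at their pairs may not be the start. In the wider set the WT rescue regions had a −log10 q from 2.06 at Krtdap to 7.26 at Asb16. The narrower set had mutant rescue values of −log10 q from 2.43 at Mab21l1 to 5.17 at Lrrc4b and Elmo1.

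Splitting and joining were about equally frequent. A single WT rescue region overlapped several mutant rescue regions 1763 times (2.55% of WT rescue regions), and a single mutant rescue region overlapped several WT rescue regions 1870 times (2.61% of mutant rescue regions). The gaps were short, with medians of 203 and 210 bp, and joining gaps of at most 500 bp left 454 and 556 cases. Both kinds had their gaps at different places relative to gene starts. Where the mutant rescue region was whole, 113 of 248 gaps with a start nearby lay within 200 bp of the start and their median position was 130 bp upstream of it. Where the WT rescue region was whole, 33 of 223 lay within 200 bp and 123 more than 200 bp downstream, with a median of 352.5 bp downstream.

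At Jarid2 a whole mutant rescue region stood against 3 WT rescue regions, as given above. Arid1a, a subunit of the BAF chromatin remodeller, had a mutant rescue region of 2896 bp against 3 WT rescue regions of 2663 bp in all. Slc26a9, an anion transporter gene, had 2554 bp against 1275 bp, and Krtap5-5, a hair keratin-associated gene, 1796 bp against 1047 bp. In the opposite direction Zmiz1, a transcriptional coregulator, had a WT rescue region of 3950 bp against 3 mutant rescue regions of 3375 bp in all. Adamts9, a metalloprotease gene, had 3490 bp against 3025 bp and Haus1, an augmin subunit, 3054 bp against 2319 bp. The immune transcription factor gene Irf4 had 2102 bp against 1852 bp and Ak1, an adenylate kinase gene, 2049 bp against 1643 bp.

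Pluripotency genes kept H3K4me3 in both lists, with ratios near those of all genes. All 25 naive pluripotency genes had the mark in both lists, with a median ratio of 0.940. The ratio was below 1 in 18 of 25 (72%), beside 74.1% of all genes. Of the 25, 0 were called, beside 3.66% of all genes with more in the WT rescue and 1.37% with more in the mutant rescue. At those shares 0 does not set so short a list apart. Pou5f1, which encodes OCT4, had 3655 and 2890 bp, Nanog 2449 and 2443 bp, and Sox2 3295 and 2617 bp. Stat3, which carries the LIF signal, was lowest (1417 and 1002 bp), while Dppa2 and Prdm14 (3052 and 3664 bp) were highest. The 15 formative and primed genes had a median ratio of 0.951, with Sall2 lowest (4026 and 3056 bp) and Foxd3 highest (2269 and 2339 bp). The olfactory receptor genes, used mainly in the nose, had the mark in neither list for 1053 of 1104 genes.

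Some lists of developmental genes had a lower median ratio than all genes (0.949), though not all of them stood clear of it. Of 18 mesoderm genes 16 had the mark in both lists, with a median ratio of 0.889. Its interval, 0.735 to 1.001, includes the value of all genes. The ratio was below 1 in 11 of the 16 (68.75%), beside 74.1% of all genes, so a lower mesoderm list is not shown. Of the 16, 2 were called with more in the WT rescue (3.66% of all genes were). These were Tbx6 (620 and 215 bp), a presomitic mesoderm factor, and Bmp4 (2298 and 875 bp), a signalling ligand. Gata4 (514 bp) and Tbx5 (409 bp), both heart factors, had the mark near an annotated gene end in the WT rescue alone, as 1.53% of all 20665 genes did, against 1.01% in the mutant rescue alone. Gata4 nevertheless had 4 regions inside the gene in both lists, 778, 1325, 936 and 1562 bp wide in the WT rescue list against 795, 1238, 966 and 413 bp. All 9 endoderm genes with the mark in both lists had a ratio below 1, beside 74.1% of all genes, with a median of 0.826. The interval of this median, 0.749 to 0.942, ended just below the 0.949 of all genes. Its upper limit was 1.013 with gaps of at most 500 bp joined and 1.048 with a gene window of 1 kb. In both of these runs the interval included the median of all genes, so a lower endoderm list depends on the processing. Pdgfra, a receptor of primitive endoderm, had 957 and 608 bp and was the one called, 1 of 9 beside 3.66% of all genes. Sox17 had 2411 and 1805 bp and Foxa2 3330 and 2625 bp, while Afp, Cer1 and Hnf4a had none in either list.

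The neuroectoderm and eye-field list had a median ratio of 0.952 over 18 genes, with 1 of 18 called beside 3.66% of all genes, Pax6 (3856 and 1394 bp). Rax, the gene that carries the GFP knock-in under its older name Rx, was among the highest (1741 and 1976 bp), with Hesx1 (1561 and 1767 bp) and Lhx2 (2611 and 2825 bp). Rax was counted from both annotated gene ends, and the effect of the knock-in on reads there was not tested.

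Of 39 Hox genes 38 had the mark in both lists and Hoxd4 in neither, with a median ratio of 0.896. Its interval, 0.849 to 0.963, includes the 0.949 of all genes. The ratio was below 1 in 31 of 38 (81.6%), beside 74.1% of all genes. None (0) were called with more in the mutant rescue, beside 1.37% of all genes. A total of 5 were called with more in the WT rescue, 13.2% beside 3.66% of all genes. They were Hoxd12 (1185 and 681 bp), Hoxb8 (582 and 365 bp), Hoxb5 (1214 and 771 bp), Hoxc6 (2368 and 1534 bp) and Hoxb3 (1353 and 888 bp). Hoxb5, Hoxc6 and Hoxb3 were counted from both annotated gene ends. Windows were measured gene by gene, so a region between neighbouring Hox genes could enter more than 1 of them. The highest ratio was that of Hoxa9 (1090 and 1292 bp). At 20 Hox starts with the mark in both lists, 13 were covered at 250 bp upstream in the WT rescue against 9 in the mutant rescue. All 9 were among the 13, and the shares over all 13563 starts were 77.3% and 76.9%. The Hox shares were 85% and 60% at 100 bp upstream, 45% in both lists at 300 bp, and 30% and 40% at 400 bp. In the ribosomal protein genes the position at 250 bp upstream had 33 and 45 of 66 starts.

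Genes of the methyltransferase machinery had ratios near those of all genes. Of 18 autosomal KMT2/SETD1 subunit genes 17 had the mark in both lists and Ncoa6 in neither, with a median ratio of 0.941. Of the 17, 0 were called, beside 3.66% of all genes with more in the WT rescue and 1.37% with more in the mutant rescue. Setd1b, a catalytic subunit, was lowest (3348 and 2385 bp) and Kmt2c highest (2765 and 2868 bp). Wdr5 had 1987 and 1769 bp, in regions at its start on chromosome 2 (27514505 to 27516491 and 27514649 to 27516417), and peak lists do not show whether the coding sequence is intact. The 23 autosomal p53 target genes had a median ratio of 0.959 and also 0 called, beside the same 3.66% and 1.37% of all genes. In lists this short a count of 0 does not set them apart. Cdkn1a, the p21 gene, had 1908 and 1906 bp, Pmaip1 1704 and 1225 bp and Gdf15 2223 and 2463 bp.

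Markers of other cell types were given for the same windows. Of 13 fibroblast markers, which feeder cells would carry, 9 had H3K4me3 in both lists, with a median ratio of 0.874, and 2 of the 9 were called with more in the WT rescue (3.66% of all genes were). Col1a1 had 2209 and 936 bp, Prrx1 2492 and 1152 bp, and the smooth muscle actin gene Acta2 had 1699 bp in the WT rescue alone, as 1.53% of all genes had the mark there alone. Thy1 had 1453 and 1533 bp and Lum 467 and 671 bp, and Col3a1, Dcn and Postn had none in either list. The interval of the median ratio, 0.462 to 1.055, includes the 0.949 of all genes. Of the 9 ratios 6 (66.7%) were below 1, beside 74.1% of all genes. Summed over the list the markers covered 18093 bp in the WT rescue and 13290 bp in the mutant rescue, a ratio of 0.735. The sums gave 0.927 for the naive pluripotency list and 0.790 for the mesoderm list. Acta2, Prrx1 and Col1a1 made up most of the fibroblast difference, so the sum does not describe the list as a whole. Whether fibroblasts contributed to either library was not tested, and fewer cells of a type and less of the mark per cell cannot be told apart. In the trophectoderm list 7 of 8 genes had the mark in both lists and Elf5 in neither. There the lowest ratio was that of Tfap2c (1291 and 391 bp), which was the one called (1 of 7, beside 3.66% of all genes), and Cdx2 had 2378 and 2235 bp.

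**Figure D5:**
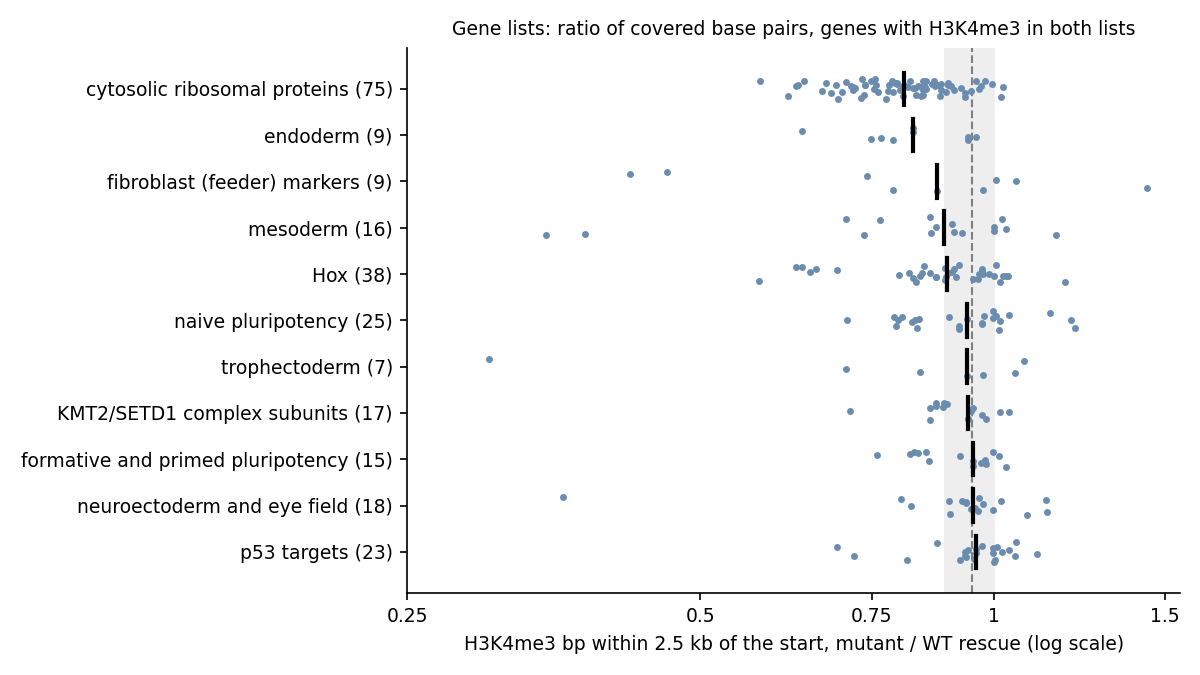
Ratio of H3K4me3 base pairs within 2.5 kb of the start, mutant rescue over WT rescue (x axis, log scale), for each gene with the mark in both lists (points) in 11 gene lists (rows, number of genes in parentheses). Thick bars are list medians, the dashed line the median of all genes (0.949) and the grey band its quartiles (0.891 and 1.00), and the ribosomal protein genes have the lowest median, 0.808.

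Base composition went with the presence and width of the mark in both lists. Of 20085 RefSeq promoters 63.7% lay in or touched a region in both lists, with a median of 22 CG dinucleotides in the 300 bases, and 33.8% in neither, with a median of 3. Promoters marked in the WT rescue alone (340, median 7 CG) and in the mutant rescue alone (159, median 5 CG) were both poor in CG. Among starts in one-to-one pairs the median difference in width was -35 bp with 0 to 4 CG, -61 bp with 10 to 19 and -91 bp with 30 or more, where 81.7% were narrower in the mutant rescue. Wide regions lie at CG-rich promoters, with a median of 26 CG for pairs over 2000 and up to 4000 bp and 21 for those over 1000 and up to 2000 bp, so composition and width go together in these values.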

How the data were processed

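Chromatin immunoprecipitation sequencing gave 1 deposited H3K4me3 peak list per line. Per the submitters' processing notes MACS2 2.1.2, Picard, SAMtools and BWA 0.7.17-r1188 were used, on mm10; settings and control are not given in the sources used here. The authors deposited for each region its position, a fold enrichment, a −log10 p, a −log10 q and a summit. The fold was used only within a list, and for removing narrow regions of high fold. The smallest −log10 p was 2.01 and 2, and no rows overlapped. Read depth is unknown.

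Here, regions were paired at an overlap of at least 1 bp. Gene starts came from the RefSeq promoter table (GRCm38.p6), which held 16457 of 20665 autosomal protein-coding genes and none on chromosome 18; for the other 4208 both annotated gene ends were used, and 2.5 kb around starts was measured. The 12 gene lists, the members and the rule for named genes (the 10 most different promoter pairs in each direction, the 5 most divided regions of each list, the 3 widest, and the extremes of each gene list) were chosen with earlier results of these data known. Further genes were named after their values were seen. Some genes that the rule takes are left out of the text. The code was tested on simulated lists. Python 3.11.15, numpy 2.4.6, pandas 2.3.3, scipy 1.17.1 and matplotlib 3.10.9 were used. The WDR5 lists and the 2 input libraries were not analysed here.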

Additional observations from a re-analysis of the deposited data

How the results depend on the processing

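With 1 library per line no replicate could be left out. No paired analysis was possible because each line has 1 H3K4me3 library and no test was made. Without regions below a −log10 q of 2 the median widths were 802 and 826 bp, the promoter shares 29.6% and 28.8%, the ratio of base pairs 1.01 and the summit distance 55 bp. With both lists cut to equal length the mutant rescue had a median of 768 bp and 27.6% at promoters, and the ratio was 1.01. With gaps of at most 500 bp joined the widths were 869 and 925 bp, the promoter shares 29.5% and 29.0%, the ratio 1.03, the promoter and outside differences -66 and 5 bp, the summit distance 60 bp and the divided regions 454 and 556. With an overlap of at least 50% the outside difference was -5 bp and the summit distance 52 bp. A promoter window of 2.5 kb gave 33.6% and 32.2%, and protein-coding starts only, chosen after seeing the data, 21.5% and 20.3%. At a called ratio of 2, 209 and 103 genes were called. The ribosomal protein median ratio turned to 1.02 with a gene window of 1 kb, where the share at 2000 bp downstream no longer enters. The shares over all 69 ribosomal protein starts were recomputed in the q, equal-length and joined-gap runs only. At 2000 bp downstream they stayed at 71.0% and 7.25%, and at the start they were 69.6% to 79.7% and 92.8%. These runs drop weak regions or join neighbours, so they hardly probe the edges of strong regions. The promoter difference kept its sign in every alternative run for it, and the order of the promoter shares was kept in each listed above. The cause of these changes was not tested. Region edges depend on a read depth that is unknown.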
